A study of Mus musculus with 8 samples.

Results

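The goblet cell mucus genes are 8 genes whose products form, process or accompany intestinal mucus: Muc2, Zg16, Clca1, Fcgbp, Tff3, Retnlb, Spink4 and Agr2. A probe was taken for a gene where the gene name in a day 3 array file was its symbol or an older alias. That gave 10 probes for 7 of the 8 genes, out of 41174 probes under 27569 gene names, with 4 probes for Muc2 and 1 for each of the others. Clca1 was found under its older mouse name Clca3, and Zg16 under the clone name 1810010M01Rik. The probes that the array files call Clca1 and Clca2 carry accessions of Clca3a1 and Clca3a2, which are other genes, and were not counted. Fcgbp had no probe by the rule, and 2 probes that the files describe as Fc fragment of IgG binding protein under the name LOC673396 are given separately.

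Goblet cells are secretory cells of the intestinal lining that fill their apex with mucus granules. They arise from crypt stem cells through progenitors that commit to the secretory lineage under the transcription factor Atoh1, and Spdef and Klf4 act later in their maturation. Muc2 is the gel-forming mucin of intestinal mucus, Zg16 is a lectin-like protein that binds bacterial cell walls, Clca1 is a secreted metalloprotease that acts on mucus, and Fcgbp is a mucus protein that can link to Muc2. Tff3 is a trefoil peptide of mucosal repair, Retnlb is a secreted resistin-like peptide, Spink4 is a Kazal-type serine protease inhibitor, and Agr2 is a protein disulfide isomerase of the endoplasmic reticulum needed for Muc2 assembly.

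RNA was hybridised to 8 two-colour arrays with 2 RNAs on each. In 2 sorts, each pooling 3 Lgr5-EGFP-ires-CreERT2 mice, GFPhi cells were compared with GFPlo cells, GFP being made from the Lgr5 locus, which marks crypt base stem cells. The other arrays compared epithelial cells from the small intestine at 3 and 5 days after induction of Cre. Those of Ah-Cre/Ascl2 floxed/floxed mice, called deleted, were set against those of Ah-Cre/Ascl2 floxed/wt mice, called control. Ascl2 is a transcription factor of crypt stem cells with a basic helix-loop-helix domain. Both deletion groups carry the Ah-Cre transgene, in which the Cyp1a1 promoter drives Cre, and control mice also carry 1 floxed Ascl2 copy. The sources used here do not state the number of mice behind each deletion pair. Each RNA pair was measured on 2 arrays with the dyes swapped, which were averaged to 1 replicate, so that each comparison has n = 2 pairs and the deletion has 1 pair per day. Values are log2 ratios of GFPhi over GFPlo or of deleted over control, tested with limma in 1 fit of all 4 pairs and called at a Benjamini-Hochberg adjusted p under 0.05.

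The share of spots that the scanner software marked well above background ran from 35.5% to 44.6% on a sort array's channel and from 55.0% to 66.9% on a deletion array's. Ascl2 itself had a log2 ratio of -1.33 on day 3 and -1.32 on day 5. Lgr5 had ratios of 2.10 and 1.61 in the sorts. The 4 pairs did not resemble each other equally: across genes tested, log2 ratios correlated at 0.60 between the 2 sorts and at -0.02 between days 3 and 5 of the deletion. The deletion pair of day 5 stood apart in stromal markers, described beside the day results. Every tested gene of the joint fit missed the threshold in both comparisons, that is 0 of 10433 genes in the sorts and 0 of 15887 in the deletion with limma. At an unadjusted p under 0.05 there were 529 and 1534 genes. In these bulk RNAs, fewer goblet cells and less RNA per goblet cell cannot be told apart.

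Start site sequences were at hand for 3 of the 8 genes, Muc2, Agr2 and Fcgbp, in RefSeq's promoter table of build GRCm38.p6. Muc2 and Agr2 are shown because they lay on the same side of 0 in the sorts and on opposite sides on day 3 of the deletion. Each sequence is the 250 bases before the annotated start, 5′ to 3′ on the + strand, with every E-box (CANNTG, the motif of basic helix-loop-helix factors such as Ascl2 and Atoh1) in capitals. The Muc2 window is chr7:141690090-141690339 and the Agr2 window is chr12:35992675-35992924.
Muc2: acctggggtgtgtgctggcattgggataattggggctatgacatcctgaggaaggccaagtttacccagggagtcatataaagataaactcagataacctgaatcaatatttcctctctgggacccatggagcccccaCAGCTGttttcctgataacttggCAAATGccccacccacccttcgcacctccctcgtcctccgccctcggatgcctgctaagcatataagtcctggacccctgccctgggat
Agr2: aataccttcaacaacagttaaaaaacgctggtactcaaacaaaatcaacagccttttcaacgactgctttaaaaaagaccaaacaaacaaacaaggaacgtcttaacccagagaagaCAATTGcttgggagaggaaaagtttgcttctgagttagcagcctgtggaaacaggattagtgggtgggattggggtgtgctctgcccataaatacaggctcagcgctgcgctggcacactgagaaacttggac

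The Muc2 window held 2 E-boxes, CAGCTG at 112 bases and CAAATG at 89 bases before the start. The Agr2 window held 1, CAATTG at 133 bases before the start. The Fcgbp window, not printed, held 3, of which 1 was CAGCTG. Over the same 250 bases of all 32851 promoters in the table, 66.2% held CANNTG and 13.0% held CAGCTG, both searched on both strands and overlapping by construction. A match describes letters in the window and not binding, which was not measured.

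The probes lie at these positions of mouse build mm8, from the array files. The Muc2 probe used in the tests, the brightest of the 4, is at chr7:141565366-141565425 on the + strand. Zg16 is at chr7:126841471-126841530, Clca1 at chr3:144941980-144942039 and Tff3 at chr17:30852346-30852405, all 3 on the - strand. Retnlb is at chr16:48738387-48738446, Agr2 at chr12:36514185-36514244 and Spink4 at chr4:41117844-41119968, all on the + strand, the last over a longer span. No exon annotation of mm8 was used here.

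In the sorts, Muc2, Zg16, Clca1, Tff3, Spink4 and Agr2 were well above background in both RNAs on every array and were lower in GFPhi than in GFPlo cells on all 4. Among the 9534 genes above background in both RNAs, 16.9% were below 0 on all 4 arrays, and among all 10433 genes tested 17.2% were. Retnlb was tested through its GFPlo signal alone, and its sort 2 ratios were -0.03 and -0.02, with GFPhi signal not well above background there. The median log2 ratio of the 6 was -1.67, beside -0.0018 over genes above background in both RNAs. With Retnlb the median was -1.47, with pair medians of -1.82 and -1.33, beside 0.00077 over all genes tested. Agr2, Tff3, Clca1 and Zg16 were at least 2-fold lower in GFPhi on every array, a pattern seen in 0.134% of genes tested. The joint limma fit called none of the 7, as it called 0% of all genes. That fit shares 1 spread per gene, so a difference between the deletion days also widens the SE in the sorts. For Zg16 that SE was 0.58, beside an SD of 0.13 between the sorts. With the 2 sorts fitted alone, limma called 6 of the 7 as lower in GFPhi, against 0.623% of all genes tested called lower (65 genes).

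Among the structural and mucus-modifying proteins, the arrays of sort 1 gave Muc2 log2 ratios of -1.73 and -2.04, and those of sort 2 gave -1.12 and -0.98. All 4 arrays were below 0, and the sorts differed by more than the dye-swapped arrays of either. The mean was -1.47 ± 0.59 (SD, n = 2 sorts), a 2.76-fold lower level, with a limma adjusted p of 0.66 in the joint fit and 0.048 in the sorts alone. Its processed signal intensity was 5715 and 5345 in GFPhi against 20429 and 22202 in GFPlo of sort 1. In sort 2 it was 2402 and 2027 in GFPhi against 7217 and 6042 in GFPlo. These intensities come from the same arrays as the ratios and are no separate evidence.

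The other 3 Muc2 probes were dimmer. In sort 1 their ratios were -0.75, -1.33 and -1.32, and in sort 2 they were -0.02, -0.04 and -0.03. In sort 2 none of the 3 was well above background in GFPhi. The probe at -0.75 was not well above background in GFPhi on any array. Averaging the Muc2 probes above background in place of taking the brightest gave a sorts mean of -0.80.

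For Zg16 the first sort gave log2 ratios of -1.33 and -1.69 and the second -1.38 and -1.28. The 4 arrays lay close together, all more than 2-fold below 0. The mean was -1.42 ± 0.13 (SD, n = 2 sorts), with a limma adjusted p of 0.0060 in the sorts alone and 0.9995 in the joint fit. Clca1 stood at -1.94 and -1.70 in the first sort and at -2.02 and -1.86 in the second. The mean of -1.88 ± 0.087 (SD, n = 2 sorts) is a 3.68-fold lower level in GFPhi, with a limma adjusted p of 0.0028 in the sorts alone and 0.66 jointly. The 2 probes described as Fc fragment of IgG binding protein had sort means of -1.83 and -2.15, and of -1.69 and -2.18. Both lay as low as the members that follow the rule, and the first passed limma in the sorts alone at an adjusted p of 0.0055. Because a similar gene, 9530053A07Rik, neighbours Fcgbp, the assignment of these probes to Fcgbp is uncertain. Family relatives of Clca1 on the array were dim and lay near 0: Clca3a1 had a mean of 0.06 and Clca3a2 of 0.14. Both had a limma adjusted p above the threshold in either fit. The processed signal of Clca3a1 was 106 to 165 in GFPhi against 48.3 to 122 in GFPlo. Its GFPlo signal was well above background on 2 of 4 arrays. For Clca3a2 the processed signal was 224 to 268 in GFPhi against 132 to 206 in GFPlo. By processed signal both were higher in GFPhi on every sort array.

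Among the secreted peptides, Tff3 stood at -1.81 and -2.07 in the first sort and at -1.81 and -2.04 in the second. The mean of -1.93 ± 0.0074 (SD, n = 2 sorts) is a 3.82-fold lower level in GFPhi, and its limma adjusted p was 0.0028 in the sorts alone and 0.66 jointly. The dye-swapped arrays differed more from each other than the sorts did. Spink4 stood at -1.12 and -0.93 in the first sort and at -0.91 and -1.11 in the second, for a mean of -1.02 ± 0.0094 (SD, n = 2 sorts). It was 2.02-fold lower in GFPhi, with a limma adjusted p of 0.0092 in the sorts alone and 0.66 jointly.

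Retnlb was the exception in size. It stood at -0.65 and -0.35 in the first sort and at -0.03 and -0.02 in the second, for a mean of -0.26 ± 0.34 (SD, n = 2 sorts). It passed limma in neither fit, with adjusted p values of 0.388 in the sorts alone and 0.9995 jointly. GFPhi signal was well above background on 2 of 4 arrays, those of sort 1, and GFPlo signal on 4 of 4. The value depended on the background correction, since the processed signals gave a mean of -1.59, at a limma adjusted p of 0.132.

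Agr2, the folding enzyme, had the most even ratios, -2.03 and -2.07 in the first sort and -2.03 and -2.05 in the second. The mean of -2.05 ± 0.0099 (SD, n = 2 sorts) is a 4.13-fold lower level in GFPhi, the 3rd lowest mean among the 10433 genes tested. Its limma adjusted p was 0.0028 in the sorts alone and 0.629 jointly. By the same rank Tff3 stood 7th, Clca1 9th, Muc2 10th, Zg16 13th and Spink4 26th from the bottom, while Retnlb stood 680th.

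**Figure D1:**
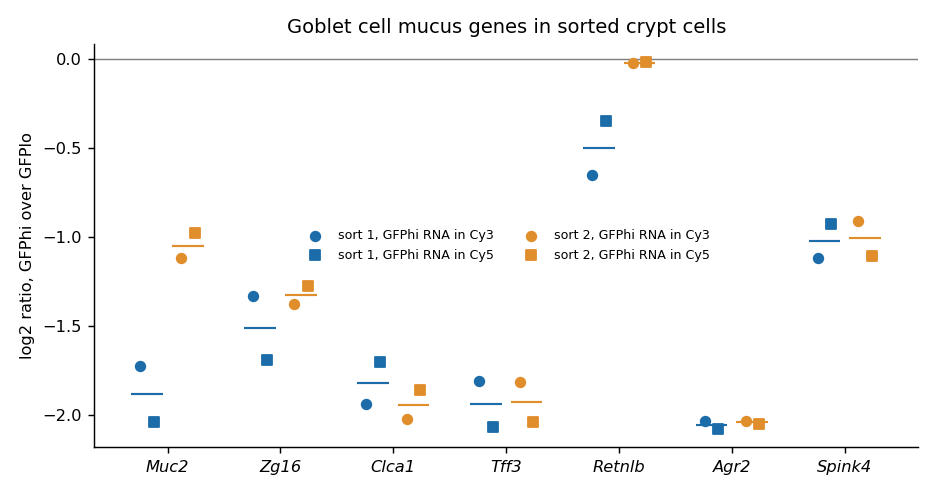
Log2 ratio of GFPhi over GFPlo (vertical axis) for the 7 measured mucus genes on each of the 4 sort arrays. Circles and squares mark the dye of the GFPhi RNA, colours mark the sort, and bars mark the mean of each sort; all points lie below 0, with Agr2 near -2.05 and Retnlb of sort 2 near 0.

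Genes that accompany mucus production in goblet cells mostly had means below 0 too, by less in the list medians. Of the 9534 genes above background in both RNAs, 4829 had a mean below 0 and 16.9% were below 0 on all 4 arrays. Of 15 other genes known from goblet cells, 11 were tested, with a median of -0.49. Of these, 9 were well above background in both RNAs and 9 of the 9 were lower in GFPhi on all 4 arrays. Ccl9 (-1.25, limma adjusted p 0.015) and Ccl6 (-0.97, limma adjusted p 0.048), both chemokines, passed in the sorts alone. Rep15, at -1.32, and the serine protease Tpsg1, at -0.83, did not. Of the 9 transcription factors of secretory and goblet fate, 8 were tested, of which 5 were above background in both RNAs. Of those 5, 4 had a mean below 0 and 2 were below 0 on all 4 arrays. In either limma fit 0 of the 8 passed. Spdef had the lowest mean at -0.94 and differed between sorts, at -1.50 and -0.38. Creb3l4 was at -0.65, Gfi1 at -0.42 and Klf4 at -0.35.

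Of 13 genes for folding and assembly in the endoplasmic reticulum, 11 were tested, 11 had a mean below 0 and 8 were below 0 on all 4 arrays. In the sorts alone 3 passed. These were Creld2 at -0.81, Pdia6, a disulfide isomerase, at -0.70, and Sdf2l1 at -0.70, with limma adjusted p values of 0.021, 0.025 and 0.047. Manf, at -0.66, did not pass. Of the enzymes of mucin O-glycosylation, 16 of 21 were tested. Of the 13 above background in both RNAs, 11 had a mean below 0 and 8 were below 0 on all 4 arrays. The initiating transferases Galnt12 (-0.73) and Galnt10 (-0.55) passed in the sorts alone at limma adjusted p values of 0.041 and 0.048. St6galnac2, a sialyltransferase, was on the other side at 0.45, and the chaperone C1galt1c1 was at -0.40, neither passing. Other mucins were not as low as Muc2. The transmembrane mucins Muc3, Muc13 and Muc4 had means of -0.77, -0.19 and 0.11, Muc20 was at 0.01, and 0 of these 4 tested genes passed in either limma fit. Agr3, a family relative of Agr2, was at 0.52, Clca4a at 0.14 and the trefoil gene Tff1 at -0.17, with none passing.

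Markers of some other lineages differed between the sorted cells as well. Of 14 enteroendocrine markers, 13 were tested, with a median of -1.17 and 4 passing in the sorts alone. Of these, 10 were well above background in both RNAs and 10 of the 10 were lower in GFPhi on all 4 arrays. The summed processed signal of the 14 was 9556 to 18554 in GFPhi against 54382 to 79281 in GFPlo. Paneth markers had a median of -0.24, tuft markers of -0.36 and enterocyte markers of -0.30. Of the 7 Paneth markers tested, 0 passed in the sorts alone and 2 were below 0 on all 4 arrays. Crypt base stem markers had a median of 0.93, with 12 of 12 tested above 0, beside 5235 of all 10433 genes tested. That list holds Lgr5, from whose locus the sorting GFP was made, so the count is partly built in. Only 5 of the 10 tested enterocyte markers and 1 of the 5 tested tuft markers were above background in both RNAs. The part of these cells in the mucus gene ratios was not tested.

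After deletion of Ascl2, the mucus genes differed by day. On day 3, Zg16, Clca1, Tff3 and Muc2 were 1.92-fold to 3.75-fold higher in deleted than in control epithelium, while Agr2, Spink4 and Retnlb were at or below control. On day 5 all 7 lay within 1.31-fold of control. The median log2 ratio of the 7 was 0.94 on day 3 and 0.13 on day 5, beside 0.0036 and -0.0067 over all genes tested. Over both days the joint limma fit called 0 of 7, with adjusted p values from 0.56 to 0.86, and 0% of all 15887 genes tested. Muc2 alone of the 7 was above 0 on all 4 deletion arrays, which 12.6% of genes tested were, and 0 of 7 were below 0 on all 4, against 13.3% of genes tested.

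Muc2 had log2 ratios of 1.03 and 0.85 on the day 3 arrays and 0.20 and 0.06 on the day 5 arrays. The mean over days was 0.54 ± 0.57 (SD, n = 2 days), at a limma adjusted p of 0.562. The dimmer Muc2 probes followed with 0.48, 0.67 and 0.65 on day 3 and -0.02, 0.01 and -0.09 on day 5.

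Zg16 had the highest day 3 value. The day 3 arrays gave 1.42 and 2.40 and the day 5 arrays 0.03 and -0.81, so the dye-swapped arrays of a day differed by 0.99 and 0.85. The deleted RNA spot behind the ratio of 2.40 was saturated, so that ratio is a lower bound, as are the day 3 mean and the size of the day difference below. The day 3 mean of 1.91 is a 3.75-fold higher level in deleted epithelium, 52nd from the top of 15887 genes, while the unsaturated array alone gave 1.42. Clca1 had ratios of 1.07 and 1.69 on day 3 and 0.11 and -0.56 on day 5. Its day 3 mean of 1.38 stood 138th from the top, and its day 5 arrays had opposite signs. The probes described as Fc fragment of IgG binding protein had means of 1.48 and 1.14 on day 3 and -0.28 and -0.32 on day 5. Clca3a1 and Clca3a2, which were dim and near 0 in the sorts, had day 3 means of 2.02 and 1.50 and day 5 means of -0.37 and -0.32.

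Tff3 had ratios of 0.94 and 1.55 on day 3 and -0.20 and -0.41 on day 5. Its day 3 mean of 1.24 stood 192nd from the top, beside 419th for Muc2, and both day 5 arrays were below 0. Spink4 went the other way, with -0.54 and -0.35 on day 3 and 0.19 and 0.15 on day 5. Agr2 did likewise, with -0.49 and -0.14 on day 3 and 0.32 and 0.04 on day 5. For both genes the 2 arrays of a day are dye swaps of 1 RNA pair. How many of all genes tested separate by day in this way was not counted. Retnlb had 0.04 and -0.10 on day 3 and 0.18 and 0.47 on day 5.

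**Figure D2:**
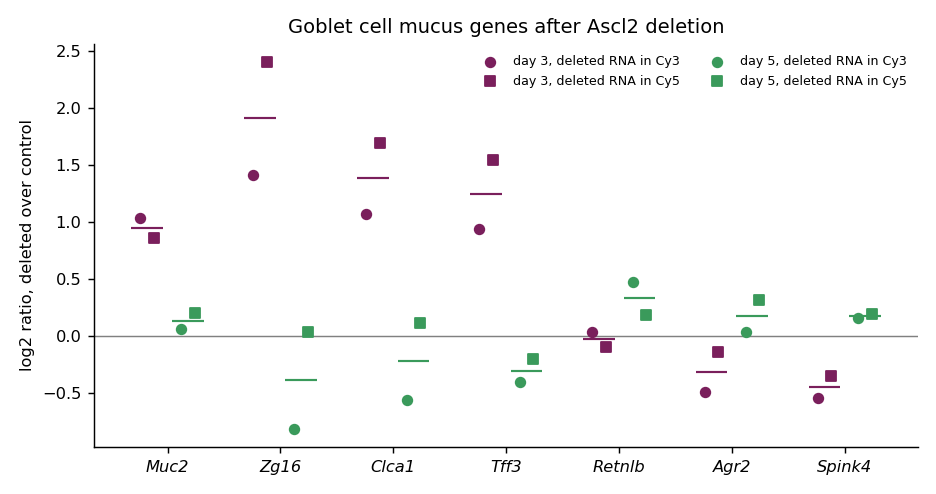
Log2 ratio of deleted over control (vertical axis) for the 7 measured mucus genes on each of the 4 deletion arrays. Colours mark the day, circles and squares the dye of the deleted RNA and bars the mean of each day; Zg16, Clca1, Tff3 and Muc2 are highest on day 3, with Zg16 at 1.91, and all day 5 means lie between -0.39 and 0.33.

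The difference between the days was tested in a limma fit with a coefficient for each day, whose spread comes from the sorts alone because each day has 1 pair. Of the 7 genes 5 passed, in a comparison where 28.6% of all 15887 genes tested passed (4541 genes). Zg16 was lower on day 5 by a log2 difference of -2.30 (SE 0.14, limma adjusted p 0.0034), Clca1 by -1.61 (SE 0.12, limma adjusted p 0.0050) and Tff3 by -1.55 (SE 0.11, limma adjusted p 0.0043). Spink4 had a difference of 0.62 (SE 0.11, limma adjusted p 0.021) and Agr2 of 0.49 (SE 0.11, limma adjusted p 0.035). Muc2, at -0.81 with an SE of 0.41, did not pass (limma adjusted p 0.21), nor did Retnlb at 0.36 (limma adjusted p 0.34). From the processed signals the differences had the same signs and similar sizes but none of the 5 passed, in a test that called 0.453% of all genes, with limma adjusted p values from 0.084 for Zg16 to 0.367 for Agr2. With the deposited series matrix Agr2 (0.122) and Spink4 (0.079) did not pass by limma adjusted p, and Zg16, Clca1 and Tff3 did, where 12.2% of 13441 genes tested passed. Without day 5, the remaining day 3 pair gave limma adjusted p values under the threshold for Zg16, Clca1, Tff3, Agr2 and Spink4, again with spread from the sorts, and 38.9% of all genes tested passed likewise.

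**Figure D3:**
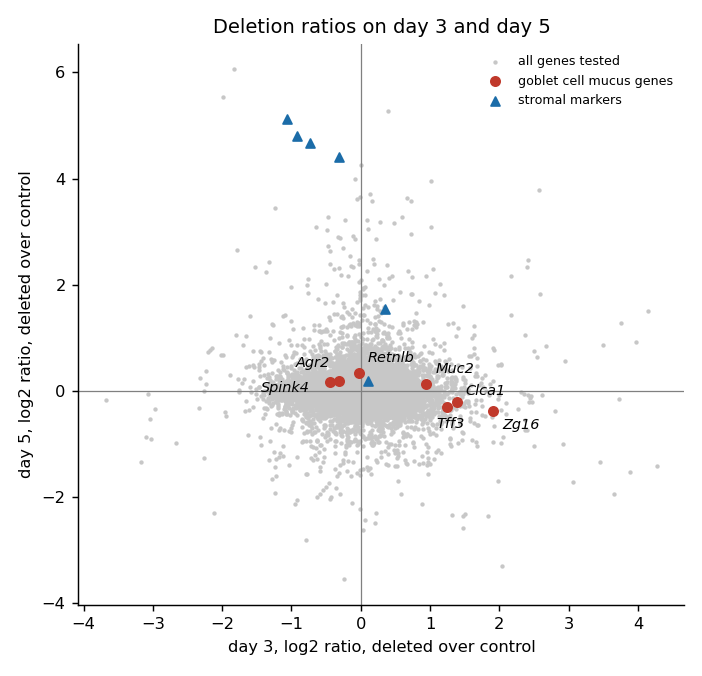
Log2 ratio of deleted over control on day 3 (horizontal axis) and day 5 (vertical axis) for 15887 genes tested in grey, the 7 mucus genes in red and stromal markers as blue triangles. Zg16, Clca1, Tff3 and Muc2 lie to the right of 0, from 0.94 to 1.91, Agr2, Spink4 and Retnlb lie at or left of 0, and the triangles of 4 stromal markers stand above 4.

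For the other genes of mucus production, counts passing in the day difference stand beside 28.6% of all genes tested. Of 9 transcription factors, 9 were tested and 3 passed in the day difference. Klf4, a factor of goblet cell differentiation, had 1.74 and 0.25 on days 3 and 5 (limma adjusted p 0.018), Foxa2 had -0.28 and -0.99 (limma adjusted p 0.027), and Foxa1 had -0.36 and 0.14 (limma adjusted p 0.037). Foxa3, at -0.21 and -0.53, did not pass. Atoh1, at 0.05 and -0.11, and Spdef, at 0.14 and 0.01, did not pass either. The 14 tested other goblet genes had medians of 0.16 on day 3 and -0.16 on day 5, and 3 passed. These were Capn9, a calpain, with 0.71 and -0.55 on days 3 and 5, Ccl9 with -1.41 and -0.15, and Sytl2 with 0.68 and -0.17. Bcas1, with 1.03 and -0.49, did not pass (limma adjusted p 0.059).

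Folding and assembly genes of the endoplasmic reticulum varied on day 3. Their median was -0.62 on day 3 and 0.18 on day 5. In the day difference 6 of 13 tested passed, where 28.6% of all genes tested did. Creld2 had -1.10 and 0.39, Sdf2l1 -0.96 and 0.26, Pdia6 -0.96 and 0.21, and the chaperone Hspa5 -0.83 and 0.18. On the other side on day 3 were the oxidase Qsox1 (0.45) and the transcription factor Xbp1 (0.17), named after their values were seen, and neither passed. Of 20 tested glycosylation enzymes 5 passed, in both directions. B3galt5 had -1.24 on day 3 and 3.44 on day 5, Gcnt1 -2.31 and 0.24, St6galnac1, a sialyltransferase of mucins, -0.30 and -1.40, and Galnt3 -0.67 and 0.28. Among other mucins, Muc16 (-0.77 on day 3 and 1.84 on day 5) and Muc4 (-0.45 and 0.31) passed, of 8 tested. Among family relatives, Agr3 had -0.91 on day 3 and -2.06 on day 5 and Clca4a had 1.60 and 0.11, and both passed, of 4 tested. Foxa1, Sytl2, Gcnt1, St6galnac1 and Muc16 passed the background filter in the deletion but were too dim to be tested in the sorts. The day test takes its spread from the sorts, so their standard errors rest on dim sort values. These ran from 0.109 for Muc16 to 0.132 for Sytl2, beside 0.109 for Agr2. Tff1 (0.17 and -0.12) and Tff2 (-0.08 and 0.22) did not pass in the day difference.

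Markers of other cells also differed between deleted and control epithelium, for several lists not alike on the 2 days. On day 3 Paneth markers had a median of -1.37 (7 of 8 tested) and cell cycle markers of -1.19 (12 of 12). Enterocyte markers (12 of 12) had a median of 0.67 and tuft markers (8 of 8) of 0.80. The summed processed signal of the Paneth markers was 388155 and 600334 in deleted against 1270812 and 1479924 in control RNA of day 3. That of the cell cycle markers was 93429 and 101822 in deleted against 214588 and 197983 in control RNA. On day 5 the medians were -0.03 for Paneth, -0.03 for cell cycle, -0.44 for enterocyte and -0.41 for tuft markers. Crypt base stem markers (13 of 13 tested), a list that holds Ascl2 itself, had medians of -0.68 on day 3 and -0.41 on day 5. Of these, 9 were below 0 on all 4 arrays, against 13.3% of genes tested. Enteroendocrine markers (14 of 14 tested) had medians of 0.19 on day 3 and -0.20 on day 5. Leukocyte markers (8 of 9 tested) had medians of 0.41 on day 3 and 0.02 on day 5.

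Stromal markers stood out on day 5, with a median of -0.53 on day 3 and 4.54 on day 5 (6 of 8 tested). Col3a1, Col1a1, Col1a2 and Dcn, genes of connective tissue matrix, had ratios from 4.41 to 5.11 on day 5. Their list's summed processed signal was 34453 and 37941 in deleted against 8285 and 9971 in control RNA of day 5, and 32202 and 37978 in deleted against 33394 and 33257 in control RNA of day 3, sums that are not scaled between arrays. All 6 tested stromal markers were well above background in both RNAs of both days. The part of these markers in the mucus gene ratios was not tested.

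**Figure D4:**
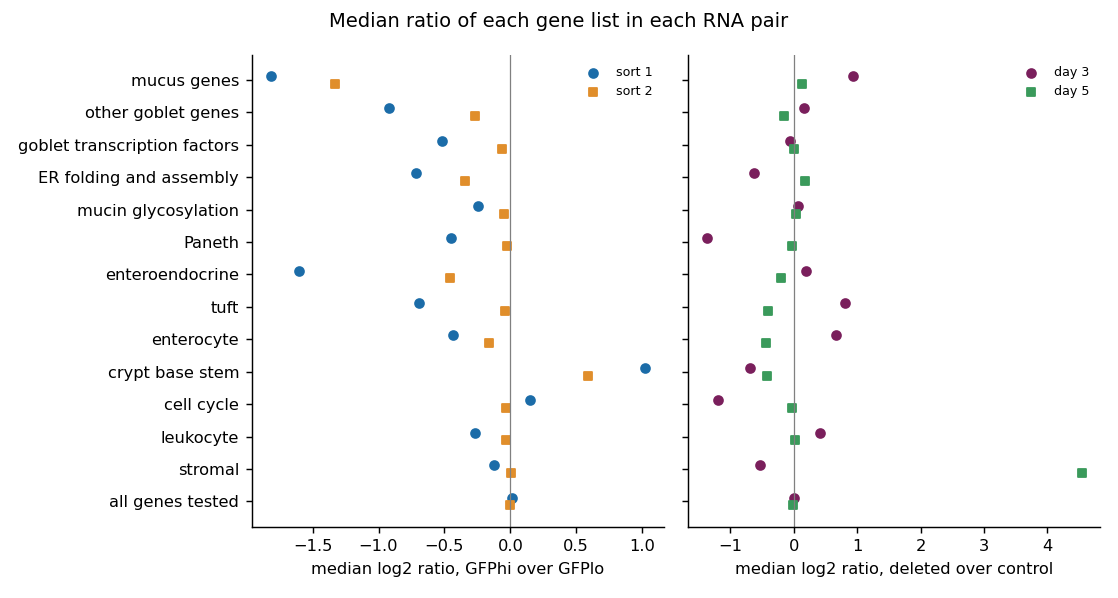
Median log2 ratio (horizontal axes) of the mucus genes and of each marker list in the 2 sorts (GFPhi over GFPlo, left) and on the 2 days (deleted over control, right), with all genes tested at the bottom. In the sorts the mucus genes and enteroendocrine markers are lowest and crypt base stem markers highest. On day 3 the mucus genes and the tuft, enterocyte and leukocyte markers are highest. The Paneth, cell cycle, crypt base stem, endoplasmic reticulum folding and stromal lists are lowest on day 3, and stromal markers reach 4.54 on day 5.

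The level of each gene in the 8 RNAs was also set side by side, as the log2 intensity after loess and equalisation of the average intensity between arrays. Within 1 probe, these levels place the deleted and the control RNA of each day, and with 1 RNA per day and group they carry no test. Between days, they cannot tell day, slide and the animals behind a pair apart. Clca1 was at 16.56 on day 3 and 15.20 on day 5 in deleted RNA, against 15.18 and 15.42 in control RNA. Muc2 was at 13.17 and 12.16 in deleted against 12.23 and 12.03 in control RNA. For both genes the deleted RNA of day 3 stood above the other 3 deletion RNAs, which lay close together. Tff3 was at 15.96 and 15.13 in deleted against 14.72 and 15.44 in control RNA, and Zg16 at 18.33 and 17.38 in deleted against 16.42 and 17.78 in control RNA. For Tff3 and Zg16 the control RNA was also lower on day 3 than on day 5. The Zg16 level in deleted RNA of day 3 includes the saturated spot and is a lower bound. Agr2 differed little, at 14.57 and 15.01 in deleted against 14.89 and 14.83 in control RNA. Spink4 was at 12.95 and 14.35 in deleted against 13.40 and 14.18 in control RNA, higher on day 5 in both.

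Retnlb differed between the days in both groups far more than between deleted and control RNA. Its processed signal on day 3 was 224 and 215 in deleted against 207 and 238 in control RNA. On day 5 it was 34000 and 39000 in deleted against 30100 and 27200 in control RNA. On the normalized scale the day 5 level was 99.0-fold the day 3 level in deleted RNA and 77.1-fold in control RNA, which in control RNA is a log2 difference of 6.27. No other of the 15887 genes tested had a larger positive day difference in control RNA, where the central 95% lay between -0.76 and 0.78. In the sorts the processed Retnlb signal was 21.7 to 121 in GFPhi against 90.3 to 260 in GFPlo.

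**Figure D5:**
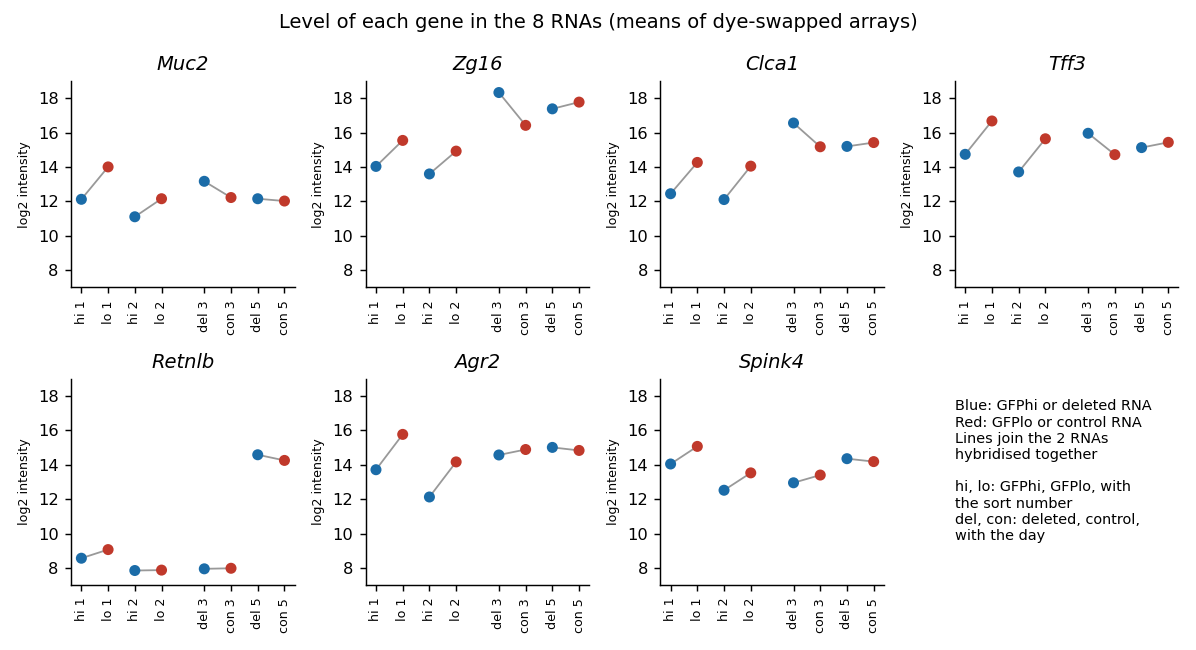
Normalized log2 intensity (vertical axes, mean of the dye-swapped arrays) of each measured mucus gene in GFPhi and GFPlo RNA of sorts 1 and 2 and in deleted and control RNA of days 3 and 5. Blue points stand for GFPhi or deleted RNA, red points for GFPlo or control RNA, and lines join RNAs hybridised together; Retnlb is near 8 on day 3 and above 14 on day 5 in both RNAs, and Clca1 and Muc2 are highest among the deletion RNAs in deleted RNA of day 3.

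The genes most like the mucus genes over the 4 pairs were found by the root mean square difference from the medians of the 7, among 8984 other genes tested in both comparisons. The 6 closest were Sct (0.35), Anxa13 (0.37), Slc51a (0.41), Scin (0.42), Guca2a (0.44) and Mical1 (0.48). Sct, the hormone secretin, had -2.06 and -1.82 in the sorts, 0.68 on day 3 and -0.21 on day 5. Guca2a, which encodes guanylin, had -1.88 and -2.04 in the sorts, 0.84 on day 3 and -0.35 on day 5. Among the members Muc2 lay closest to the medians at 0.14, with Tff3 at 0.41, Clca1 at 0.42 and Zg16 at 0.57. The members themselves make up the medians, and Muc2 is the median on both deletion days, so its closeness is partly built in. Agr2 at 0.73, Spink4 at 0.82 and Retnlb at 1.05 lay farther off.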

How the data were processed

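The 8 arrays are Agilent two-colour designs that cover the mouse transcriptome. Per the file headers, the scanner files come from Agilent Feature Extraction 9.5.3.1 (protocol GE2-v5_95_Feb07), with probe positions on mouse build mm8, and hold spot intensity values on a linear scale with their Cy5 over Cy3 ratios on a log10 scale. The values in the deposited series matrix are log2 ratios, all running as deleted over control or GFPhi over GFPlo. Its columns correlated at 0.964 to 0.999 with the turned scanner log ratios, at slopes near 1 and medians from -0.022 to 0.035, and whether the authors centred them stays unknown. The day 5 scanner values are rounded, so feature numbers were used to carry the day 3 files' probe names over.

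From the intensities, background was corrected with normexp (offset 50), followed by loess within each array with the 1639 control spots at weight 0 and outlier spots left out. Ratios were turned by the labelled dyes, spots of a probe averaged, a gene represented by its brightest probe and the dye-swapped arrays of a pair averaged. limma 3.58.1 under R 4.3.3, with statmod 1.5.0 for the block, fitted all 4 RNA pairs together (lmFit, eBayes, two-sided tests). Its prior SD was 0.156 on 1.99 degrees of freedom, and the deletion days' difference in time enters the spread. Tests covered genes whose probe exceeded background clearly in 1 of the 2 RNAs, or both, on all its arrays. Levels used normalizeBetweenArrays with Aquantile. Log2 ratios of the dye-swapped arrays correlated at 0.51 and 0.39 in the sorts and at 0.86 and 0.82 in the deletion, and the number of arrays limits the precision. Mice were pooled and separate animals are not named for the deletion pairs. The p-values therefore reflect the spread among pools or extracts, which may be technical, and in the joint fit also the difference between deletion days.

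Probes were named through accessions or symbols in RefSeq's gene table (GRCm38.p6), where 23477 of 41174 probes matched by accession, 6678 by current and 2891 by older symbol, while 8128 kept the file's name. The members and lists were chosen with earlier results of these data known, so their counts are descriptions. The text names all members, from each list up to 4 tested genes with the largest ratio in the comparison described, and the 6 genes closest to the members. Besides these it names the targeted gene, Lgr5, Qsox1 and Xbp1, and for the deletion Atoh1 and Spdef. Alternatives were the fit, the source of the values, the background correction, the probe, the filter and leaving out a pair. The pipeline was tested on simulated data.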

Additional observations from a re-analysis of the deposited data

Results flagged for a closer look

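The ratio of deleted over control differed between day 5 and day 3 for 5 of the mucus genes, by limma's test of the difference, whose spread comes from the sorts alone and which called 28.6% of all genes. On the log2 scale, day 5 minus day 3 was -2.30 for Zg16 (a bound on its size, since 1 day 3 spot was saturated), -1.61 for Clca1, -1.55 for Tff3, 0.62 for Spink4 and 0.49 for Agr2. None of the 5 passed when Feature Extraction's processed signals were used, with limma adjusted p values of 0.084, 0.139, 0.125, 0.297 and 0.367 in that order. Each day has 1 RNA pair, so that day, slide and the animals behind a pair cannot be told apart.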

How the results depend on the processing

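No paired analysis was possible because each ratio already sets its 2 RNAs side by side on 1 array, and the replicate numbers of the deletion arrays only name dye-swapped arrays of 1 RNA pair in accession order, which pair nothing with the sorts. Each slide held 1 RNA pair, so a slide block is the same as the pair block, and slide and pair cannot be told apart. Genes called in the sorts numbered 0 in the joint limma fit, 114 with each comparison fitted alone, 128 with 1 coefficient per deletion day, 38 with the 8 arrays and the pair as a random block, and 0 to 128 with a pair left out, 128 being reached without either deletion day. The mucus genes called among them were 6, 5, 4 and 0 to 5. Genes called in the deletion numbered 0, 4510 with 1 coefficient per day, 254 with the random block, and 0 to 6178 with a pair left out (1245 without day 3 and 6178 without day 5), when the lone pair is assumed to vary like the sorts. Mucus genes called among them were 3 (Zg16, Clca1 and Tff3) with 1 coefficient per day, 0 with the random block and 5 without day 5. Genes called in the day difference numbered 4541, 72 from processed signals and 1634 from the series matrix; that test has no value fitted alone, with the random block or with a pair left out. Without day 3 the deletion values changed sign to 0.18 for Agr2, -0.22 for Clca1, 0.17 for Spink4, -0.31 for Tff3 and -0.39 for Zg16, and without day 5 to -0.032 for Retnlb, the other day giving -0.32, 1.38, -0.45, 1.24, 1.91 and 0.33. The median of the mucus genes in the sorts was -1.47, -1.86 in the series matrix, where Retnlb has no value, and -1.82 to -1.33 with a sort left out. In the deletion it was 0.47, and 0.13 to 0.94 with a day left out. Ratios of Retnlb and of the 3 dim Muc2 probes, which were not used in the tests, are limited in sort 2 by GFPhi signal near background.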
